A study of Mus musculus with 9 samples.

Results

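The genes of the proteasome were followed in mouse neurons from the medial prefrontal cortex (mPFC). Members were taken by symbol alone: every gene named Psma to Psmg with a number, which gave 49 of the 47593 gene symbols of the deposited tables, with 231 transcripts. They were the 14 standard subunits of the core and Psma8, the 17 subunits of the regulatory cap, the 4 immune and thymus subunits, 5 activators, 7 assembly chaperones and 1 inhibitor gene, Psmf1. RNA was obtained by RiboTag immunoprecipitation, which pulls down a tagged ribosomal protein with the RNA on its ribosomes, and sequenced as stranded total RNA. All 9 libraries came from adult C57BL/6 mice, in 3 groups of 3. Both control groups carried green fluorescent protein (GFP), 1 in sleep and 1 in enforced wake. The third group carried GFP-Fxr1, an overexpressed fusion with the RNA-binding protein Fxr1 of the fragile X family, also in enforced wake, so no group had Fxr1 in sleep. The driver of the ribosome tag, the vector of GFP or GFP-Fxr1, the length of enforced wake and whether replicates were separate animals are facts the sources used here do not give, so the tests measure only the spread between these libraries, which may be technical.

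The proteasome is the protease that breaks down proteins marked with ubiquitin. Its barrel-shaped core has outer alpha rings (Psma genes), which form the gate, and inner beta rings (Psmb genes), which hold the cutting sites. The cap (Psmc and most Psmd genes) binds ubiquitin chains, removes them and unfolds the protein with a ring of ATPases. Activators (Psme genes) can open the gate in place of the cap. The product of Psmf1 was first described as an inhibitor of the isolated core, and was later linked to the assembly and axonal transport of proteasomes. In neurons, proteasomes act at synapses, where protein turnover is part of synaptic plasticity.

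Values are gene FPKM, the sum over a gene's transcripts of fragments per kilobase of transcript, scaled to the mapped fragments of the library, and are given for libraries 1, 2 and 3 of a group in that order. FPKM are per length, which allows a rough comparison between genes, but they keep the trend with GC content described below. A difference is on the log2(FPKM + 1) scale with its standard error (SE), and a gene passed at a limma adjusted p under 0.05 over all genes tested. Of the 49 members, 46 reached the mean of 0.5 FPKM needed for a test in each comparison. The members left out were Psma8, the alpha subunit of testis, Psmb11, the beta subunit of the thymus, and Psme2b, a near-identical copy of the activator gene Psme2. Their highest values in any library were 0.193, 0.0765 and 0.544 FPKM.

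Depth was an estimated 3.01e+07 to 3.76e+07 fragments a library. Across genes, Pearson r between replicates ran from 0.984 to 0.99 in both control groups and 0.957 to 0.987 with Fxr1, where library 1 stood apart from the other two. Fxr1 itself was 31.0 to 34.8 FPKM in the 6 control libraries and 91.1, 67.7 and 71.8 FPKM with Fxr1. The summed FPKM of 8 neuronal marker genes was 3640 to 4190, far above other cell types. Every sleep library had a higher neuronal sum (3950 or more) than any other library (3850 or less). For 8 astrocyte markers the sum did not overlap between the groups: the sleep libraries held 197 to 225, those of enforced wake 236 to 284 and those with Fxr1 163 to 174. The single astrocyte markers did not all go with the sum. In enforced wake against sleep 1 passed as higher and 1 as lower, and in Fxr1 against control 0 and 1. In Fxr1 against sleep 1 passed as higher and 2 as lower. The sum was 94.7 to 158 over all libraries for 8 oligodendrocyte, 12.8 to 26.9 for 8 microglial and 9.3 to 17.2 for 8 endothelial markers. Of all markers, 0 were at 0 in any library. Each of these sums was lower in every Fxr1 library than in every enforced wake control. Their highest values with Fxr1 were 132, 20.2 and 14.4, and their lowest in the controls 136, 22.9 and 15.1. Sleep overlapped Fxr1 in each. Of these single markers 0 passed in Fxr1 against control. In Fxr1 against sleep 3 oligodendrocyte markers passed as lower and 0 as higher. The part of these shifts in the members' differences was not tested. In such bulk samples, fewer cells of a type and less RNA per cell cannot be told apart. Differences of all genes moved with GC content: from the fifth of genes lowest in GC to the highest, the median difference went from -0.17 to 0.28 for enforced wake minus sleep and from 0.29 to -0.62 for Fxr1 minus control in enforced wake. Genes that passed, and others whose direction is given, are therefore also described after a trend over GC content and transcript length had been subtracted.

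The mean over the core genes was above that over the cap genes, and the inhibitor was far below both means. Single genes of core and cap overlapped. Of these 31 genes, the cap genes Psmc3 and Psmc1 ranked 4 and 5 in sleep, and the core gene Psma3 ranked 26. In sleep, the mean over the 14 core genes was 93.5, 91.8 and 93.0 FPKM. The cap genes were somewhat lower, with a ratio of their mean to that of the core of 0.762, 0.722 and 0.749. Psmf1 was at 11.7%, 11.4% and 12% of the core mean. The highest members in sleep were Psmb7, which carries the trypsin-like site of the core, at 153 ± 3.02 FPKM (SD, n = 3), the alpha gene Psma2 at 145 ± 6.97 and the beta gene Psmb1 at 144 ± 3.35. The libraries of Psma2 (138 to 152) overlapped those of Psmb7 (150 to 156) and of Psmb1 (140 to 147), and these 3 genes had the 3 highest means in each group. Of the 31 standard core and cap genes, the lowest was Psmd3, a lid subunit, at 27.2 ± 4.24 FPKM in sleep, and it was the lowest of them with Fxr1 as well (17.8 ± 6.9). Together the members made up 0.672% to 0.81% of all FPKM of a library.

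Psmf1 had the largest difference of the members in both comparisons with Fxr1. Its FPKM, summed over transcripts, fell in enforced wake and was lowest where Fxr1 was added. The mean of its transcripts annotated as coding did not fall in enforced wake (3.73 FPKM in sleep and 5.26 in enforced wake). The gene (ENSMUSG00000032869) lies on the minus strand at chr2:151715812-151744186 of GRCm38, has 6 annotated transcripts and a GC content of 48.8%, and shares its place with 0 other annotated genes. It was at 10.9, 10.5 and 11.2 FPKM in sleep. In enforced wake it was at 8.57, 7.48 and 8.02 FPKM. In enforced wake with Fxr1 it was at 2.25, 3.43 and 3.50 FPKM. The 3 groups did not overlap: every enforced wake library was below every sleep library and above every Fxr1 library. The mean in enforced wake was 73.8% of that in sleep, and the mean with Fxr1 was 38.2% of that in enforced wake and 28.2% of that in sleep.

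The bases before the annotated start of Psmf1 are shown because this gene moved apart from the subunits. Those of Psmb5 and Psmb6, for the chymotrypsin-like and caspase-like sites, are shown beside it because they hold the motif through which proteasome genes are known to be induced. They come from RefSeq on build GRCm38.p6, 5′ to 3′ on the strand of the gene, without annotated exons. Psmf1 is chr2:151741311-151741560 (minus strand), Psmb5 is chr14:54618023-54618245 (minus) and Psmb6 is chr11:70525107-70525356 (plus). The RefSeq start of Psmf1, at base 151741310, lies inside the GENCODE span of the gene, so its window holds intron of a longer transcript. Capitals mark TGACNNNGC, the core of the antioxidant response element, which Nfe2l1 binds.
Psmf1: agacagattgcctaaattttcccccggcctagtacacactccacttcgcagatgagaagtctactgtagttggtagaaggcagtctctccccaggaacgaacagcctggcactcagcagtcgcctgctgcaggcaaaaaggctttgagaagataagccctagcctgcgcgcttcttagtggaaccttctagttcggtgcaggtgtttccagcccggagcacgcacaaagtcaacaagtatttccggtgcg
Psmb5: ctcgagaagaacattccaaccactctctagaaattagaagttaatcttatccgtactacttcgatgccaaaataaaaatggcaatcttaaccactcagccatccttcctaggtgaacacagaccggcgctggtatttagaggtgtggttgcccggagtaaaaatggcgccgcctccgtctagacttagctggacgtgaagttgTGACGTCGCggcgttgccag
Psmb6: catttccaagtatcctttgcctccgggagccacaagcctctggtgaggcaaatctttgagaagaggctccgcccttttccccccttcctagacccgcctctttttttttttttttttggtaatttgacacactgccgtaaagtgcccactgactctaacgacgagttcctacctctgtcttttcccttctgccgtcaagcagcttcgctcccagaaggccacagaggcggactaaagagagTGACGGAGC
The motif, searched on both strands, was found 47 bases before the start of Psmb5 and 9 bases before that of Psmb6, and 0 times in the window of Psmf1. RefSeq windows of 250 bases were matched for 41 member genes, and 5 of the 44 windows held it (Psmb5, Psmb6, Psmc6, Psmd12 and Psmd9), or 11.4%, against 10.2% of all 32851 windows. A match is a description of the letters and not a binding site.

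**Figure D1:**
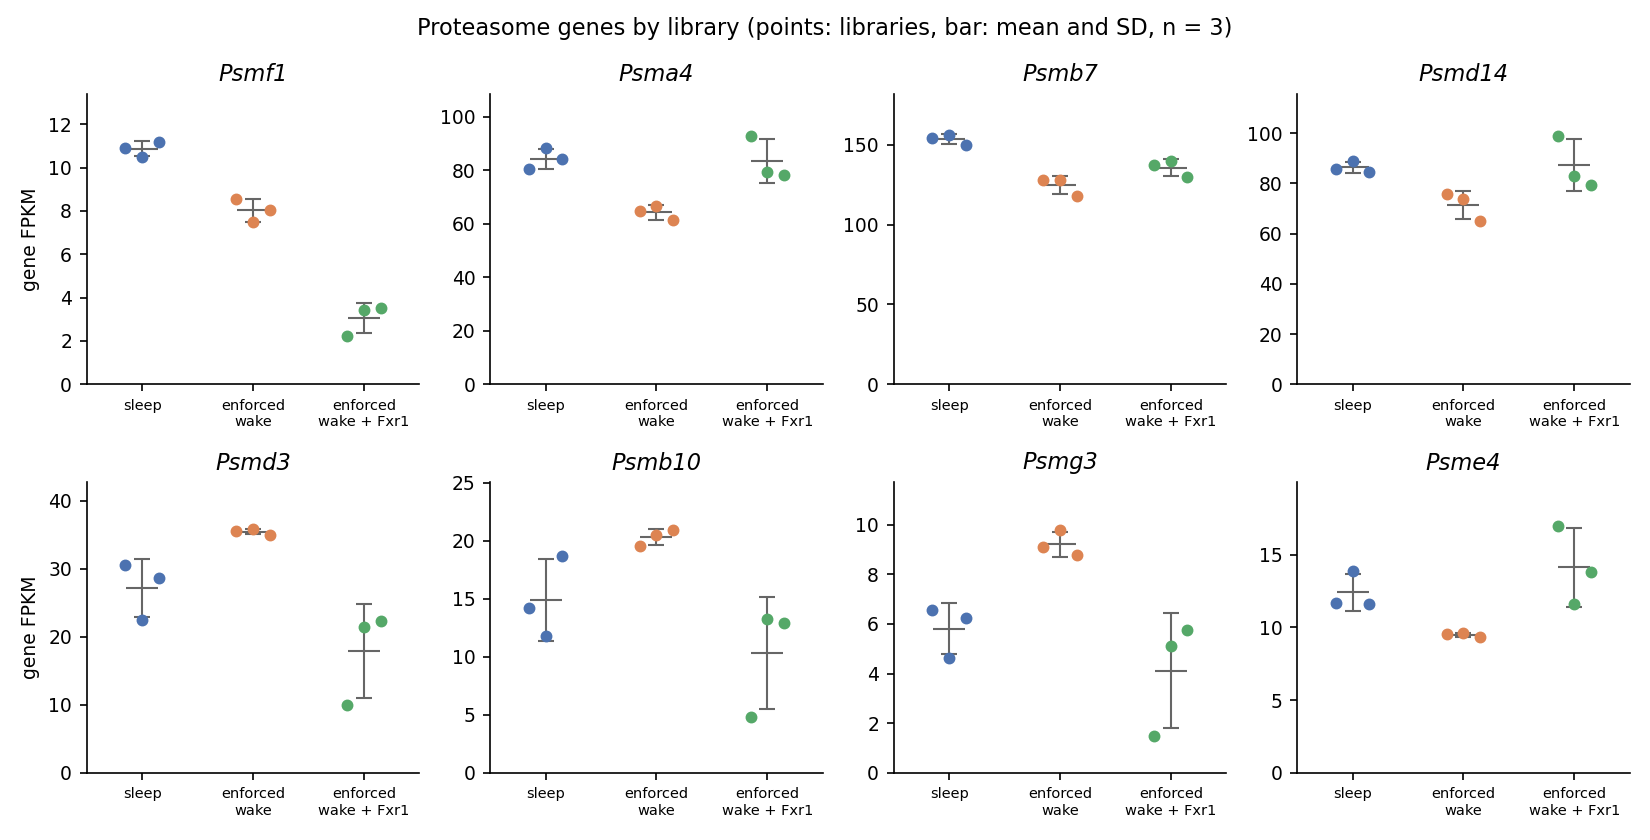
Gene FPKM of 8 proteasome genes in each library (points) with mean and SD (bars, n = 3) for sleep, enforced wake and enforced wake with Fxr1; each axis starts at 0. Psmf1 steps down from 10.9 to 8.02 to 3.06 FPKM with no overlap of the groups, while Psma4, Psmd14 and Psme4 are lowest in enforced wake and Psmd3, Psmb10 and Psmg3 are highest there.

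Enforced wake against sleep asks what staying awake did to ribosome-associated proteasome RNA. Without the GC trend subtracted, the inhibitor gene, members of the alpha ring, Psmb7, some cap subunits and the activator gene Psme4 fell. The cap genes Psmd3 and Psmd4 and the chaperone genes Psmd9 and Psmg3 rose. With the trend subtracted 6 members passed, Psmd9 and Psmg3 higher and Psma4, Psma7, Psme4 and Psmf1 lower. Of the 17 cap genes 0 passed on that scale, and of all genes 23.3% did. Without that step 13 of the 46 genes tested passed, 4 higher and 9 lower. Of all genes tested 28.3% passed in this way (15.7% higher and 12.7% lower). The members' share was thus that of all genes, and 26 of 46 had an unadjusted p under 0.05, where 42.6% of all genes did. The median difference of the members was -0.10 against 0.00 for all genes, and 33 of 46 differences were negative. The groups did not overlap for 9 members that were higher and 19 that were lower in enforced wake, where 49.5% of all genes had groups apart (25.8% higher and 23.8% lower).

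For the inhibitor, Psmf1, the difference of enforced wake minus sleep was -0.40 (SE 0.07, adjusted p = 0.0103). It passed in each of the 6 fits that left out 1 library, with adjusted p up to 0.0422, and was -0.39 with the GC trend subtracted (adjusted p = 0.00779). In a fit over all 9 libraries together, whose estimate of the spread includes the Fxr1 group, its adjusted p was 0.088.

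All 7 alpha genes tested had negative differences, from -0.39 to -0.02, and 3 of them passed. The largest was that of Psma4 (chr9:54950790-54958030), with 80.6, 88.2 and 84.1 FPKM in sleep. In enforced wake it was at 64.9, 66.8 and 61.2 FPKM, below every sleep library, a difference of -0.39 (SE 0.06, adjusted p = 0.00786). With the GC trend subtracted it was -0.21 (adjusted p = 0.0129), and it passed in all 6 fits that left out 1 library. Psma1 went from 96.3, 100 and 90.6 to 85.0, 80.8 and 72.5 FPKM, with a difference of -0.27 (SE 0.08, adjusted p = 0.0402). Psma2 went from 138, 152 and 146 to 129, 122 and 113 FPKM, with a difference of -0.26 (SE 0.07, adjusted p = 0.0332). For both, sleep and enforced wake did not overlap, but with the GC trend subtracted the differences were -0.07 (adjusted p = 0.392) and -0.04 (adjusted p = 0.481). Psma3, the lowest of the 7 alpha genes tested, had 46.2, 54.3 and 50.9 FPKM in sleep and 42.6, 44.6 and 39.4 in enforced wake, and did not pass (adjusted p = 0.0556). The alpha gene with the lowest level, Psma8, was at 0.125, 0.0877 and 0.149 FPKM in sleep, 0.0593, 0.193 and 0.0196 in enforced wake and 0.0348, 0.0791 and 0 with Fxr1, too low for a test. All 7 differences were also negative with the trend subtracted. Psma7 differed by -0.02 and had overlapping groups; with the GC trend subtracted it was -0.26 (adjusted p = 0.0177), so that Psma4 and Psma7 were the alpha genes that passed on that scale.

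The beta genes were divided, with 4 positive and 3 negative differences, of which that of Psmb7 passed. Psmb7 (chr2:38588036-38644087) was at 154, 156 and 150 FPKM in sleep and at 128, 128 and 118 FPKM in enforced wake. Its groups did not overlap, and the difference was -0.30 (SE 0.06, adjusted p = 0.0124). It passed without each library in turn (adjusted p up to 0.0432) but not with the GC trend subtracted (-0.10, adjusted p = 0.17). The genes of the other cutting sites lay on the opposite side of 0: Psmb5 was at 69.0, 51.1 and 64.6 FPKM in sleep and at 78.4, 77.7 and 75.6 FPKM in enforced wake. Its difference was 0.33 (SE 0.11, adjusted p = 0.0627; 0.08 with the trend subtracted), and that of Psmb6 was 0.24 (SE 0.09, adjusted p = 0.0904; 0.20 with the trend subtracted). Neither passed, although in both genes every enforced wake library was above every sleep library. The lowest beta gene in sleep, Psmb2, had overlapping groups, with 60.5, 51.5 and 62.2 FPKM in sleep and 53.0, 55.6 and 53.7 in enforced wake.

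Of the 17 cap genes, 2 passed as higher and 3 as lower. Psmd3, a scaffold subunit of the lid at chr11:98682554-98695979, was at 30.5, 22.4 and 28.6 FPKM in sleep and 35.6, 35.8 and 35.0 in enforced wake, a difference of 0.39 (SE 0.11, adjusted p = 0.0432). Psmd4, which binds ubiquitin chains, was at 49.7, 42.7 and 47.6 FPKM in sleep and at 54.2, 58.4 and 54.8 in enforced wake, a difference of 0.26 (SE 0.07, adjusted p = 0.0396). In both genes the sleep libraries were all lower, and library 2 of sleep was the lowest. Psmd14, the enzyme of the lid that cuts off ubiquitin chains, went from 85.7, 88.8 and 84.7 to 75.8, 73.6 and 65.2 FPKM. Its difference was -0.27 (SE 0.07, adjusted p = 0.0302). The lid gene Psmd6 went from 75.3, 74.0 and 68.6 to 62.6, 62.2 and 56.6 FPKM (-0.26, SE 0.07, adjusted p = 0.0288). Psmd1, a large subunit of the cap base on which ubiquitin receptors dock, went from 57.8, 59.6 and 59.7 to 52.9, 53.0 and 48.7 FPKM (-0.19, SE 0.06, adjusted p = 0.0424). In these 3 genes no enforced wake library reached a sleep library. Their GC content was 43.2%, 47.1% and 46.9%, below that of Psmd3 (55.4%) and Psmd4 (52.8%), and with the GC trend subtracted 0 of the 17 cap genes passed, these 5 genes being at -0.05, -0.13, -0.12, 0.17 and 0.18 in that order.

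None of the 6 ATPase genes, which form the unfolding ring, passed, and their differences ran from -0.27 for Psmc6 to 0.20 for Psmc5. With the GC trend subtracted Psmc6 was at -0.01 and Psmc5 at 0.18. The most abundant in sleep, Psmc3, was at 137, 99.5 and 131 FPKM there and at 115, 125 and 116 FPKM in enforced wake, within the range of sleep. The least abundant, Psmc4, was at 55.8, 44.3 and 49.4 FPKM in sleep and 60.7, 54.3 and 53.7 in enforced wake, and these groups also overlapped. Psmd2, the most abundant gene of the cap base outside the ATPases, was nearly level, at 90.5, 82.2 and 91.1 FPKM in sleep and 88.7, 89.4 and 84.3 in enforced wake, with a difference of -0.01 (SE 0.06).

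Of the assembly chaperones, which help build the particle and are not part of it, 2 of 7 rose. Psmd9 (chr5:123169413-123250131), a chaperone of the cap base, was at 7.91, 7.06 and 7.50 FPKM in sleep and at 9.85, 10.9 and 9.33 in enforced wake, a difference of 0.38 (SE 0.08, adjusted p = 0.0169). Psmg3 (chr5:139823592-139826885), a chaperone of the alpha ring, was at 6.55, 4.64 and 6.24 FPKM in sleep and at 9.09, 9.78 and 8.80 in enforced wake. Its difference of 0.60 (SE 0.12, adjusted p = 0.0154) was the largest of all members in this comparison. For both genes the groups did not overlap, and with the GC trend subtracted the differences stayed at 0.35 (adjusted p = 0.021) and 0.59 (adjusted p = 0.0163). The other chaperones had differences from -0.23 to -0.04, or from -0.32 to 0.16 with the GC trend subtracted, and did not pass. Of these, Psmd5 was the most abundant cap chaperone in sleep, with 14.5, 19.3 and 18.7 FPKM there and 18.5, 18.4 and 12.4 in enforced wake. Psmg2 was the most abundant core chaperone, at 12.9, 12.7 and 12.8 and then 12.1, 12.5 and 10.3 FPKM, and Psmg4, close to Psmg3 in sleep, was at 5.86, 6.15 and 6.11 and then 6.20, 6.81 and 4.71 FPKM.

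All 4 activator genes tested had negative differences, and Psme4 passed. Psme4, for a large single-chain activator best known from the nucleus (chr11:30771726-30880361), went from 11.7, 13.9 and 11.6 FPKM to 9.51, 9.59 and 9.33 FPKM, with no overlap. The difference was -0.35 (SE 0.08, adjusted p = 0.0225), and -0.26 with the GC trend subtracted (adjusted p = 0.0293). Psme3, the most abundant activator gene, went from 38.3, 36.7 and 37.9 to 35.7, 33.6 and 32.4 FPKM. It did not pass (-0.15, SE 0.06, adjusted p = 0.0957, and -0.14 with the GC trend subtracted). Reads of Psme2 and its copy Psme2b may be divided between them, so both are uncertain.

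The immune subunits Psmb8, Psmb9 and Psmb10, which take the places of Psmb5, Psmb6 and Psmb7 in cells exposed to interferon, were low next to the standard ones. In sleep Psmb8 was at 1.13, 2.28 and 6.01 FPKM, and Psmb9 at 0.235, 0.674 and 1.58 FPKM. The summed microglial markers had the same order over these 3 libraries, at 16.2, 21.2 and 26.9 FPKM, while Psmb10 did not. In enforced wake the sum was 26.7, 22.9 and 26.5 FPKM. Psmb8 was at 2.30, 2.01 and 2.86 FPKM there and Psmb9 at 1.14, 0.399 and 0.891. In its libraries 1 and 3 both genes were thus below sleep library 3, although the sums were close. The part of microglia in the values was not tested. Of the 8 markers, 1 passed as higher and 0 as lower in enforced wake. Psmb10 was more abundant, at 14.2, 11.8 and 18.7 FPKM in sleep and 19.6, 20.5 and 20.9 in enforced wake. Its groups did not overlap, with a difference of 0.45 (SE 0.15, adjusted p = 0.0661), or 0.23 with the GC trend subtracted (adjusted p = 0.202). Psmb10 amounted to 9.24%, 7.55% and 12.5% of Psmb7 in sleep and to 15.3%, 16.0% and 17.7% in enforced wake. The GC trend was not subtracted from these shares, and the GC content was 56.5% for Psmb10 and 40.8% for Psmb7. None of the 3 immune genes passed. Psmb11, the thymus subunit, was at 0.0213, 0.00778 and 0.0558 FPKM in sleep and 0.0197, 0.0765 and 0.0156 in enforced wake, near 0 throughout.

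Several of these calls were lost when 1 library was left out, and calls over all genes became fewer too. With all 6 libraries 2298 genes passed as higher and 1858 as lower. Without enforced wake library 1, 2 or 3 these were 1433 and 1137, 1080 and 742, and 1057 and 809. Without sleep library 1, 2 or 3 they were 2103 and 1528, 1836 and 1321, and 1660 and 1168. Without library 2 of enforced wake, Psmd9 and Psmg3 had adjusted p of 0.0592 and 0.0562, and both passed without each of the other five libraries. Psme4 was lost without library 1, 2 or 3 of enforced wake (adjusted p 0.0604, 0.0675 and 0.0724). Psma2 was lost without library 2 or 3 of either group (0.0681 to 0.0928) and Psmd3 without library 3 of sleep or any enforced wake library (0.0677 to 0.111). Psma1 and Psmd14 passed only without library 1 of enforced wake (0.0476 and 0.0434), Psmd4 only without library 1 of sleep (0.0382), and Psmd6 only without library 3 of sleep (0.0431). Psmd1 was lost without any 1 of the 6 libraries (0.067 to 0.117), with differences from -0.21 to -0.15. In the fit over all 9 libraries, Psma4 and Psmb7 passed (adjusted p 0.029 and 0.0306) and the other 11 did not. Of all 14617 genes tested there, 669 passed as higher and 729 as lower.

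**Figure D2:**
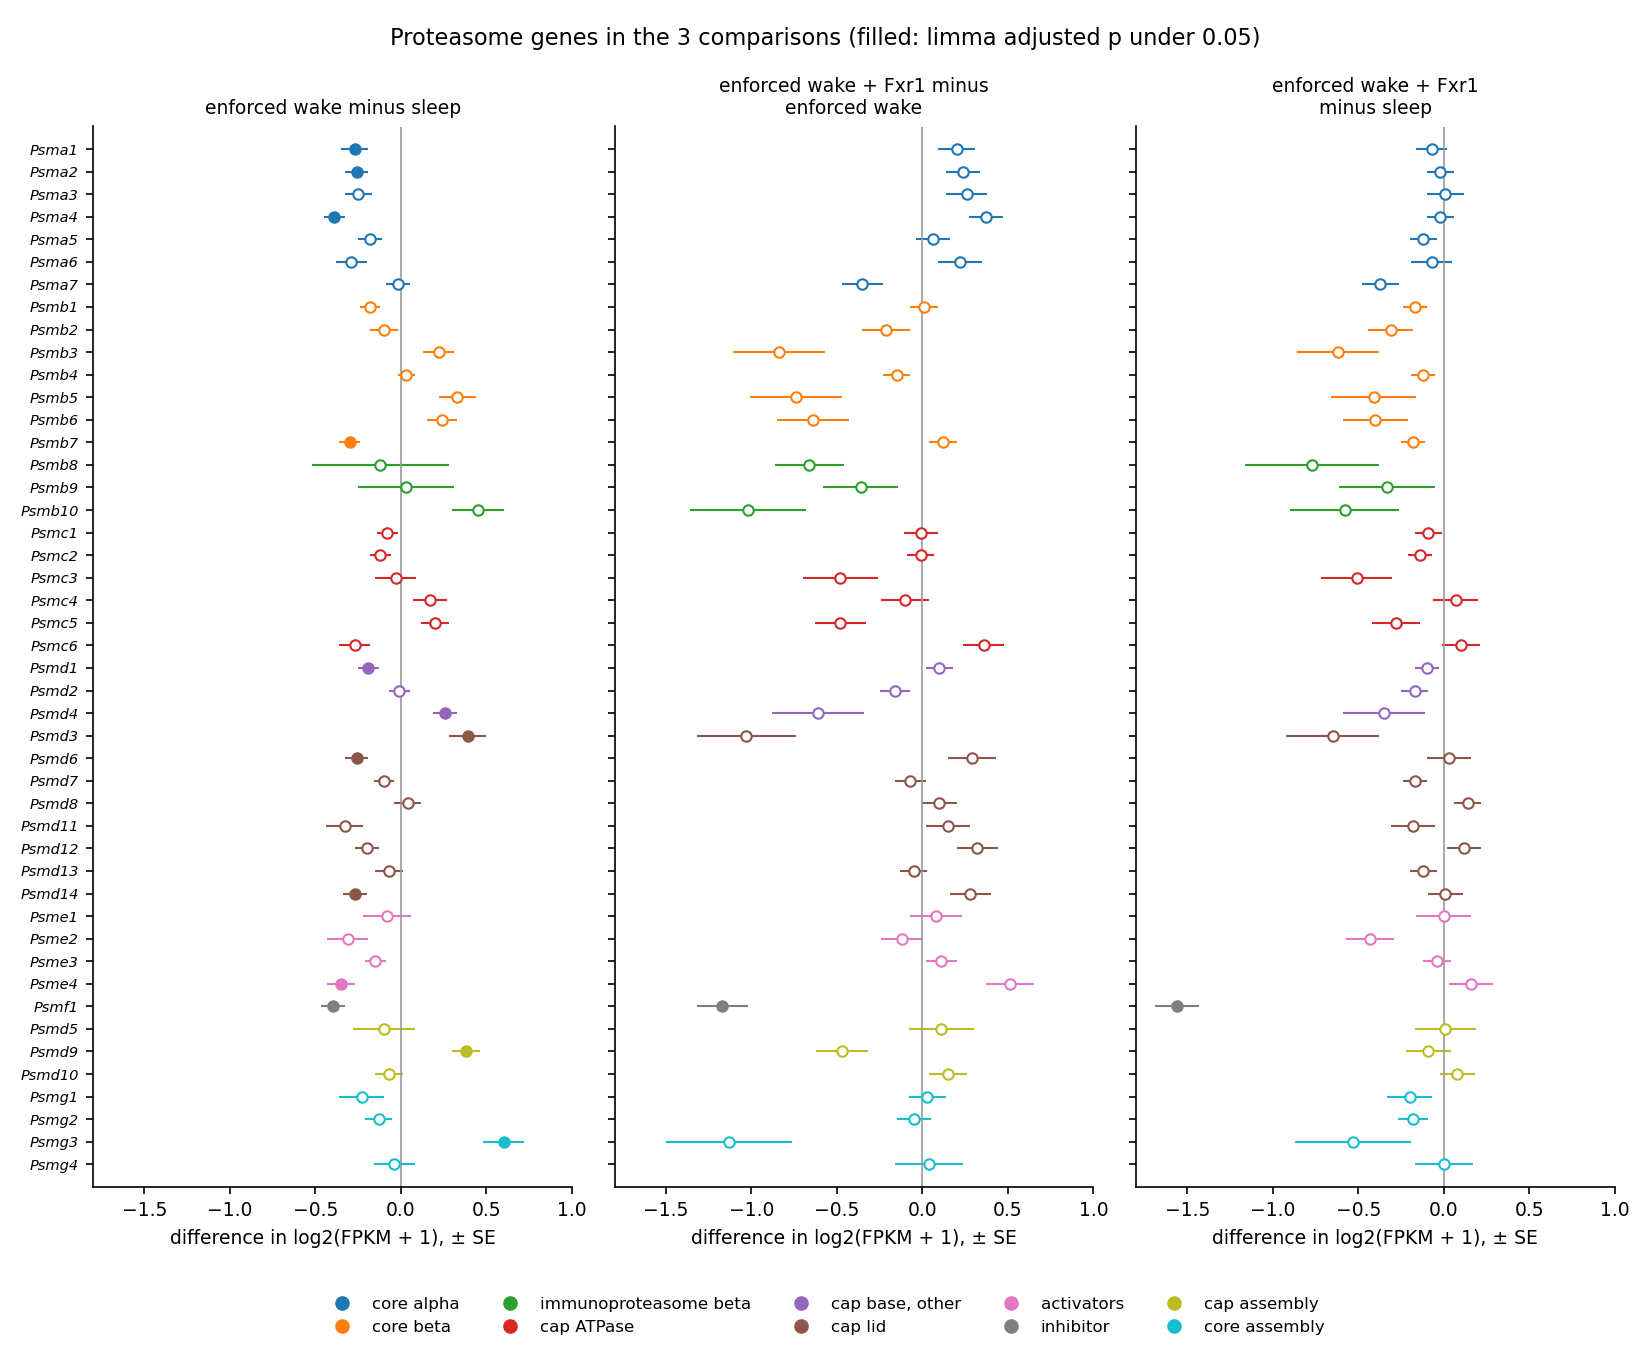
Difference of log2(FPKM + 1) with its SE for the 46 genes tested, by class, in the 3 comparisons; filled points passed (limma, adjusted p under 0.05). In the panel of enforced wake minus sleep 13 genes are filled, in the other 2 panels Psmf1 alone, at -1.17 and -1.56.

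Fxr1 against control in enforced wake asks what the added Fxr1 did in animals kept awake. Psmf1 fell, and it was the one member that passed: 0.412% of all genes tested passed, 0.0824% as higher and 0.33% as lower. The change of the inhibitor, -1.17 (SE 0.15, adjusted p = 0.0454), was the largest of the 46 in size. Every Fxr1 library was below every enforced wake control. The median difference of the members was -0.01 against -0.06 for all genes, and 17 of 46 had an unadjusted p under 0.05, where 38.3% of all genes did. The groups did not overlap for 10 members that were higher and 16 that were lower, where 52.5% of all genes had groups apart (20.3% higher and 32.3% lower).

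The adjusted p of Psmf1 lay close to the threshold and depended on the libraries. It was 0.203, 0.216 and 0.249 without enforced wake library 1, 2 or 3, 0.0882 and 0.0522 without Fxr1 library 2 or 3, and 0.00375 without Fxr1 library 1, while the difference stayed between -1.25 and -1.01. With the GC trend subtracted it was -1.13 (adjusted p = 0.0302), and the fifth of all genes around its GC content had a median of -0.04. It did not pass with a pseudocount of 0.1 (adjusted p = 0.0711), with no filter on low values (0.101) or with a mean of at least 5 FPKM (0.0574). Over all genes, 12 passed as higher and 48 as lower with all libraries. Without enforced wake library 1, 2 or 3 these were 1 and 3, 1 and 1, and 1 and 1.

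The core as a whole differed little between these groups. Its mean FPKM was 88.3, 86.8 and 80.4 in enforced wake and 81.0, 85.4 and 82.2 with Fxr1, with overlap, and the ratio of cap to core was 0.775, 0.771 and 0.783 against 0.760, 0.771 and 0.788. Psmf1 as a share of the core mean was 9.71%, 8.61% and 9.97% in enforced wake and 2.78%, 4.02% and 4.26% with Fxr1. The share in every Fxr1 library was thus below that in every control.

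**Figure D3:**
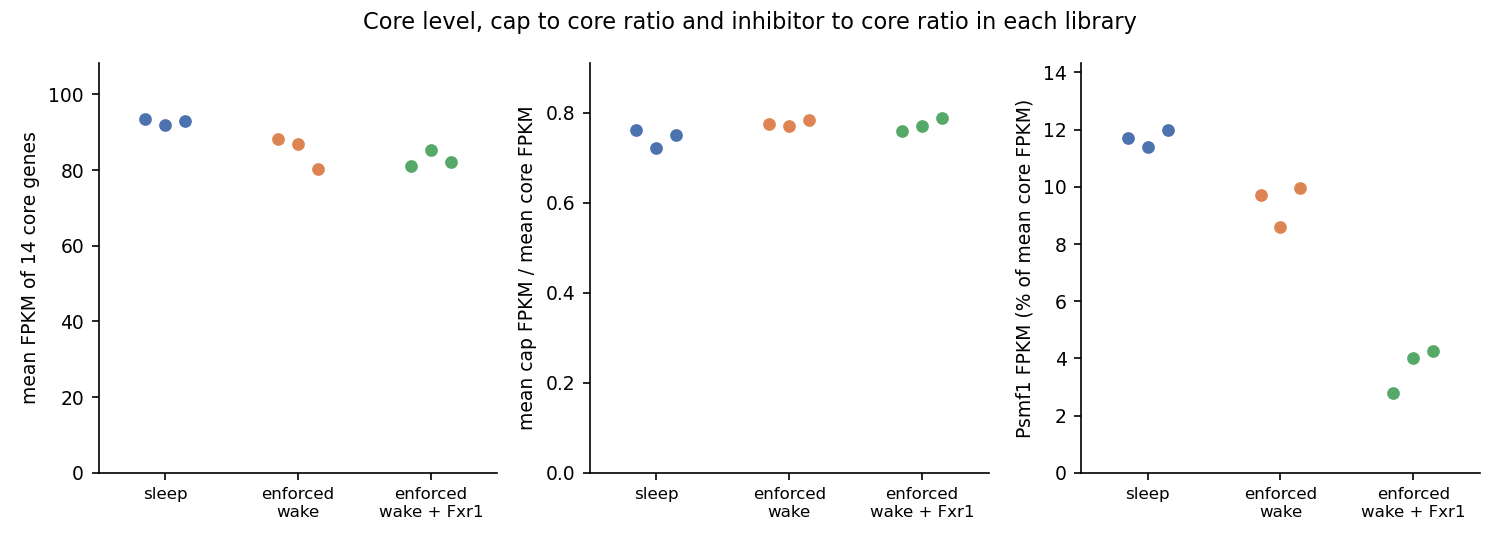
Mean FPKM of the 14 core genes, ratio of the mean cap to the mean core FPKM, and Psmf1 FPKM in percent of the core mean, 1 point per library. Every sleep library has a higher core mean (91.8 FPKM or more) than any other library (88.3 FPKM or less). The cap ratio is at most 0.762 for sleep and at least 0.771 for enforced wake, without overlap, and 0.760 to 0.788 with Fxr1. These means and ratios were not tested, and the GC trend was not subtracted from them. Psmf1 is at 11.4% or more in sleep and at 4.26% or less with Fxr1.

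Among the core genes, 6 of 7 alpha genes had positive differences with Fxr1 and 5 of 7 beta genes negative ones, and 0 of the 14 passed. With the GC trend subtracted 5 alpha genes were positive and 6 beta genes negative. Psma4 was at 92.9, 79.4 and 78.2 FPKM with Fxr1, above the 64.9, 66.8 and 61.2 FPKM of the control, and differed by 0.37 (SE 0.10, adjusted p = 0.0878), or 0.23 with the trend subtracted. Psmb5 was at 28.4, 56.6 and 59.0 FPKM with Fxr1, below the control at 78.4, 77.7 and 75.6, and differed by -0.74 (SE 0.27, adjusted p = 0.105), or -0.12 with the trend subtracted. Psmb3 was at 25.0, 50.3 and 50.4 FPKM against 73.0, 72.9 and 70.3 (-0.84, SE 0.27, adjusted p = 0.0943), or -0.78 with the trend subtracted. In Psmb5 and Psmb3 library 1 was far below libraries 2 and 3, and all Fxr1 libraries were below the controls. Psmb7 was at 137, 140 and 130 FPKM, above its controls by 0.12 (SE 0.08, adjusted p = 0.298), and the sign turned to -0.17 with the trend subtracted.

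None of the 17 cap genes passed. Psmd3 was at 9.90, 21.4 and 22.3 FPKM with Fxr1 against 35.6, 35.8 and 35.0 in the control (-1.03, SE 0.29, adjusted p = 0.088). Psmd4 was at 23.0, 50.8 and 40.5 FPKM (-0.61, SE 0.27, adjusted p = 0.145) and Psmd14 at 99.0, 83.1 and 79.5 FPKM (0.28, SE 0.12, adjusted p = 0.129), on opposite sides of controls they did not overlap. Psmd1 was at 57.6, 55.8 and 52.4 FPKM and Psmd6 at 91.1, 70.2 and 63.7 FPKM, with differences of 0.10 and 0.29. With the trend subtracted, Psmd3 was at -0.54, Psmd4 at -0.34, Psmd14 at 0.05, Psmd1 at 0.04 and Psmd6 at 0.23. The ATPase genes Psmc3, at 59.5, 108 and 94.6 FPKM, and Psmc4, at 48.1, 46.5 and 63.6 FPKM, differed by -0.48 and -0.10, or by -0.03 and 0.12 with the trend subtracted.

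In the remaining classes other than the inhibitor 0 genes passed. The chaperone gene Psmg3 was at 1.48, 5.13 and 5.75 FPKM with Fxr1 against 9.09, 9.78 and 8.80 in the control (-1.13, SE 0.37, adjusted p = 0.0958), and Psmd9 at 5.58, 7.21 and 8.35 FPKM (-0.47, SE 0.15, adjusted p = 0.0932). Psme4 was at 17.0, 11.6 and 13.8 FPKM, above its controls (0.51, SE 0.14, adjusted p = 0.088). The immune subunit gene Psmb10 was at 4.80, 13.3 and 12.9 FPKM, below its controls (-1.02, SE 0.34, adjusted p = 0.097). Psmb8 was at 0.597, 1.40 and 1.55 FPKM against 2.30, 2.01 and 2.86 (-0.66, SE 0.20, adjusted p = 0.0911). The microglial marker sum moved the same way, at 12.8, 18.1 and 20.2 FPKM with Fxr1 and 26.7, 22.9 and 26.5 in the control, and its part in the immune subunits was not tested; 0 of the 8 markers passed. With the GC trend subtracted, Psmg3 was at -1.02, Psmd9 at -0.33, Psme4 at 0.33, Psmb10 at -0.46 and Psmb8 at -0.42. Over all 46 members the sign turned in 15 with the trend subtracted.

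Members whose values with Fxr1 are given for completeness, as the highest or lowest of their class or as genes that passed in enforced wake against sleep, follow here. Psma1 was at 101, 86.1 and 87.3 FPKM and Psma2 at 153, 146 and 132 FPKM, both above every enforced wake control. Psma3, at 59.3, 48.8 and 45.1 FPKM, was also above its controls, and Psmb2, at 37.7, 52.1 and 51.2 FPKM, was below them. None of these 4 passed, and with the trend subtracted they were at 0.02, -0.09, -0.03 and -0.01. Psmd2 was at 70.2, 82.0 and 82.1 FPKM, below its controls (-0.16, and -0.01 with the trend subtracted). The activator gene Psme3 was at 38.3, 38.2 and 33.5 FPKM and the chaperone gene Psmd5 at 17.6, 20.4 and 14.9 FPKM, both overlapping their controls. The chaperone genes Psmg2 and Psmg4 were at 11.8, 11.1 and 10.8 and at 7.80, 6.01 and 4.61 FPKM, and both overlapped their controls. Psmb11 was at 0.0208, 0.0255 and 0.0471 FPKM. Psme2b, the lowest activator gene, was at 0.441, 0.494 and 0.544 FPKM in sleep, 0.391, 0.300 and 0.275 in enforced wake and 0.140, 0.283 and 0.389 with Fxr1.

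Without Fxr1 library 1, 11 members passed where 22.8% of all genes did. Of these Psma4 (0.29, adjusted p = 0.0234) and Psme4 (0.38, adjusted p = 0.0305) were higher. The 9 lower genes were Psmf1 (-1.01), Psmd3 (-0.68), Psmg3 (-0.67), Psmb10 (-0.60), Psmb3 (-0.51), Psmb5 (-0.41), Psmb6 (-0.39), Psmc5 (-0.31) and Psma7 (-0.22), with adjusted p from 0.00365 to 0.0355. The GC trend was not subtracted here, and in the fit with all libraries the sign of Psma7 turned with it (-0.35 to 0.26). In the fit over all 9 libraries 10 members passed, 3 higher and 7 lower, where 23.0% of all genes did, and 8 genes were shared by both alternatives.

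Enforced wake with Fxr1 against sleep differs in state as well as in Fxr1. Psmf1 was again the one member that passed, lower by 1.56 on the log2 scale (-1.56, SE 0.13, adjusted p = 0.0013), where 7.79% of all genes passed (3.2% higher and 4.58% lower). It passed in all 9 fits that left out 1 library, with differences from -1.64 to -1.41, and was -1.52 with the GC trend subtracted (adjusted p = 0.000303). The groups did not overlap for 13 members, all of them lower, where 32.7% of all genes had groups apart (11.5% higher and 21.2% lower). An unadjusted p under 0.05 was found for 9 of 46, where 29.2% of all genes had one. The 7 beta genes had differences from -0.62 to -0.12 and the 7 alpha genes from -0.37 to 0.01. With the GC trend subtracted these ran from -0.51 to 0.08 and from -0.13 to 0.02. Psma4, at -0.02 (SE 0.08), Psmd14, at 0.01 (SE 0.10), and Psma2, at -0.02 (SE 0.08), had overlapping groups. For Psmb7 every Fxr1 library was below every sleep library (-0.18, SE 0.07, adjusted p = 0.129; -0.26 with the GC trend subtracted). This comparison shares libraries with both others, so the sizes for a gene cannot be read as separate evidence.

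The direction of the members' differences followed GC content, as did that of all genes. Over the 45 genes without Psmf1, Spearman's rho of the difference with GC content was 0.69 for enforced wake minus sleep. It was -0.71 for Fxr1 minus control and -0.49 for Fxr1 minus sleep, and these points share the same libraries. Over all genes rho was 0.54, -0.81 and -0.53 in that order. With the trend of all genes subtracted the values were -0.09, 0.10 and 0.07. Of the 12 members under 45% GC, all had negative differences in enforced wake minus sleep and 6 passed as lower, whereas of the 22 members at 50% GC or more, 12 were positive and 4 passed as higher. In Fxr1 minus control, 11 of the 12 were positive and 18 of the 22 negative. All genes were not counted in these bins, so the counts cannot be read as particular to the members. With the trend subtracted, 6 members passed in enforced wake minus sleep: Psmd9 and Psmg3 higher and Psma4, Psma7, Psme4 and Psmf1 lower, where 23.3% of all genes passed (10.3% higher and 13.0% lower). In both comparisons with Fxr1, Psmf1 alone passed on that scale, where 0.282% of all genes passed in Fxr1 minus control (0.11% higher and 0.172% lower) and 12.9% in Fxr1 minus sleep (7.25% higher and 5.65% lower).

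**Figure D4:**
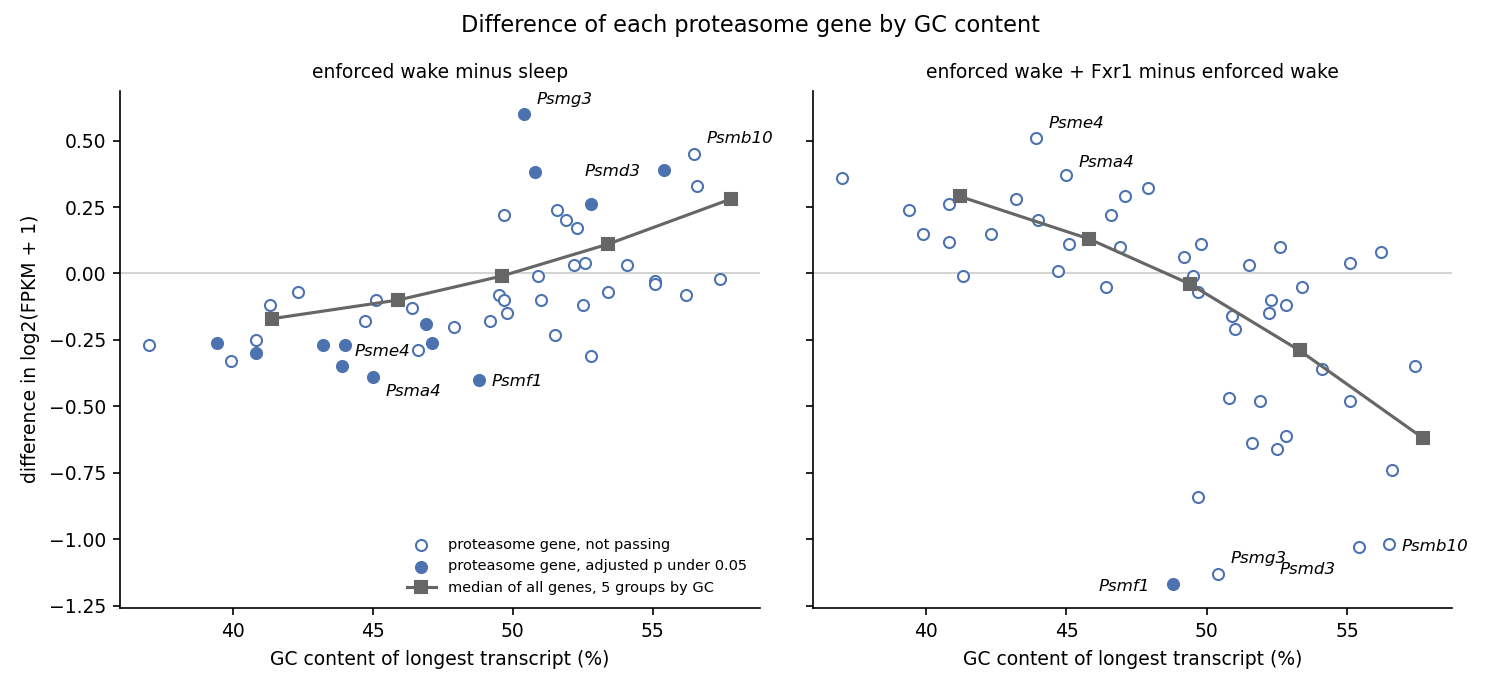
Difference of log2(FPKM + 1) of each of the 46 proteasome genes against the GC content of its longest transcript (percent), with the median of all genes in 5 groups by GC (grey squares). The members rise with GC content in enforced wake minus sleep and fall with it in Fxr1 minus control, as the medians of all genes do; Psmf1, at 48.8% GC, lies at -0.40 and -1.17 where the medians of the third group are -0.01 and -0.04.

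The fall of Psmf1 was divided unequally over its annotated transcripts. In sleep, transcripts annotated as coding summed to 4.37, 2.95 and 3.87 FPKM and the others, with a retained intron or marked for nonsense-mediated decay, to 6.54, 7.55 and 7.30 FPKM. In enforced wake the coding sum was 3.47, 6.62 and 5.68 FPKM and the rest 5.10, 0.855 and 2.34 FPKM. The coding sum thus overlapped between sleep and enforced wake, with a higher mean in enforced wake (5.26, SD 1.62) than in sleep (3.73, SD 0.719). The rest was lower in every enforced wake library than in every sleep library, with means of 2.77 (SD 2.15) and 7.13 (SD 0.525). With Fxr1 the coding sum was 1.11, 1.56 and 1.80 FPKM, below all 6 control libraries, and the rest was 1.14, 1.87 and 1.70 FPKM, within the range of enforced wake. An estimate of this kind can move between transcripts that share exons, and library 1 of enforced wake had shares close to those of sleep library 1 (40.5% and 40.1% coding).

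The 2 most abundant Psmf1 transcripts differed in opposite directions between sleep and libraries 2 and 3 of enforced wake, and both were low with Fxr1. The coding transcript ENSMUST00000042452 was at 2.93, 2.95 and 1.27 FPKM in sleep, 1.59, 6.08 and 5.34 in enforced wake and 1.11, 1.56 and 1.80 with Fxr1. The decay transcript ENSMUST00000155939 was at 5.41, 4.85 and 4.13 FPKM in sleep, 4.19, 0.338 and 1.60 in enforced wake and 0.469, 0.983 and 1.22 with Fxr1. Libraries 2 and 3 of enforced wake were high in the first and low in the second. ENSMUST00000125977, with a retained intron, was at 0.847, 2.01 and 2.63 FPKM in sleep, 0.545, 0.321 and 0.529 in enforced wake and 0.220, 0.337 and 0.184 with Fxr1. The second coding transcript, ENSMUST00000109869, was at 1.45, 0 and 2.61 FPKM in sleep and 1.88, 0.543 and 0.334 in enforced wake, and was listed at 0 in each Fxr1 library. None of the Psmf1 transcripts passed on its own, and in the authors' deposited tables their q-values ran from 0.569 to 0.99.

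**Figure D5:**
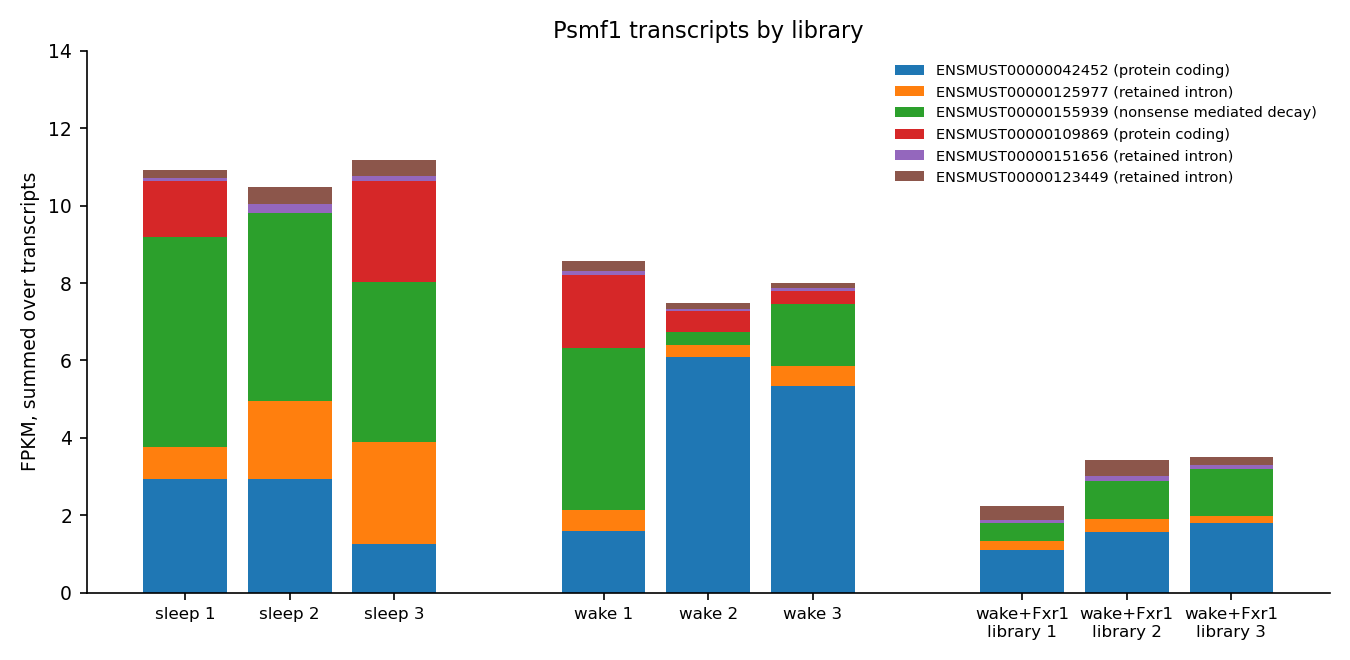
FPKM of the 6 annotated Psmf1 transcripts stacked in each library, so that the height is the gene FPKM. The total is 10.5 FPKM or more in sleep and 3.50 or less with Fxr1; the coding transcripts hold 28.1% to 40.1% of it in sleep and 88.6% and 70.8% in libraries 2 and 3 of enforced wake.

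Of all member transcripts, 1 passed in each comparison tested. In enforced wake against sleep it was that of Psmb7, ENSMUST00000028083 (-0.30, adjusted p = 0.0421), of 119 tested, where 3.62% of all transcripts passed, and it was lost without any 1 of the 6 libraries. In Fxr1 against control it was ENSMUST00000031531 of Psmg3, of 110 tested, where 0.895% passed. It was at 8.28, 7.69 and 6.76 FPKM in enforced wake and at 1.40, 1.96 and 2.56 with Fxr1, with no overlap (-1.54, SE 0.19, adjusted p = 0.0334), and it was lost without enforced wake library 1, 2 or 3 or Fxr1 library 2. By the authors' deposited q-values, 0 of 224 member transcripts were under 0.05 in sleep against enforced wake and 0 of 226 in Fxr1 against control.

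Partners of the proteasome outside the Psm family were read from 5 lists, in which 35 genes were found and tested. In enforced wake against sleep 4 passed as higher and 8 as lower, with a median of -0.01, where 28.3% of all genes passed (15.7% higher and 12.7% lower). The lower ones included both deubiquitinases bound to the cap: Usp14 went from 126, 140 and 129 to 106, 103 and 94.6 FPKM (-0.37, SE 0.07, adjusted p = 0.0119) and Uchl5 from 33.9, 38.5 and 35.7 to 29.8, 27.3 and 27.7 FPKM (-0.34, SE 0.07, adjusted p = 0.0152). Neither had overlapping groups. Uchl5 was -0.08 with the GC trend subtracted (adjusted p = 0.257) and did not pass without library 2 or 3 of enforced wake (0.0595 and 0.0545), whereas Usp14 was -0.19 (adjusted p = 0.0234). The other lower genes were Zfand5, which stimulates the proteasome (-0.58), Akirin2, which brings it into the nucleus (-0.22), Vcp (-0.19) and Ufd1l (-0.35) of the segregase that pulls ubiquitin-tagged proteins out of complexes, the shuttle Rad23b (-0.23) and Ngly1 (-0.35), a deglycosylating enzyme that acts on Nfe2l1. The higher ones were Ddi2, the protease that activates Nfe2l1 (0.33), the cap receptor Adrm1 (0.32), the ubiquitin-activating enzyme Uba6 (0.27) and the shuttle Ubqln4 (0.24). Adjusted p ranged from 0.00972 to 0.0436 over the 12 genes. Usp14, Ufd1l and Ddi2 passed in all 6 fits that left out 1 library, and the other nine lost the call in at least 1, with adjusted p up to 0.119. With the GC trend subtracted Ddi2 (0.27), Uba6 (0.42), Usp14 (-0.19), Ufd1l (-0.24), Vcp (-0.21) and Ngly1 (-0.17) passed, and so did Shfm1, a small subunit of the lid, at 0.24 (adjusted p = 0.0288) against 0.03 without that step, whereas Adrm1 and Ubqln4 were at 0.07 and 0.00.

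Nfe2l1, the factor that induces proteasome genes when the proteasome is impaired, did not pass: it was at 26.9, 18.1 and 21.9 FPKM in sleep, 23.5, 20.2 and 26.7 in enforced wake and 33.6, 18.6 and 22.3 with Fxr1, with overlap throughout. Pomp, the maturation factor of the core, was at 54.9 to 68.5 FPKM in all 9 libraries and did not pass. In Fxr1 against control 0 of the 35 passed. The ubiquitin gene Ubb was at 735, 700 and 687 FPKM in enforced wake and 277, 533 and 526 with Fxr1 (-0.73, SE 0.26, adjusted p = 0.102; -0.36 with the trend subtracted). It was lower in every Fxr1 library than in every enforced wake control, most of all in library 1. In Fxr1 against sleep 2 of the 35 passed, where 7.79% of all genes did, both higher: Uba6 (0.64, SE 0.10, adjusted p = 0.013) and Ddi2 (0.30, SE 0.07, adjusted p = 0.0334). With the trend subtracted they were at 0.43 and 0.25 (adjusted p 0.00374 and 0.0168), and Ubqln4 (0.26) and Zfand5 (-0.41) passed as well (0.0191 and 0.0389). Uba6 was lost without library 1 or 3 of sleep (0.0624 and 0.0507), and Ddi2 without any 1 library other than Fxr1 library 1 (adjusted p up to 0.109). Of the 3 partners of the Psmf1 protein listed, Fbxo7, Tnks and Tnks2, 0 passed in any comparison. Their summed level ranged from 68.3 to 73.7 FPKM over the sleep libraries, from 69.3 to 72.6 over those of enforced wake and from 76.5 to 87.7 over those with Fxr1. Only the mean of Tnks2 was higher with Fxr1 than in enforced wake (58.2 against 45.6 FPKM). Those of Fbxo7 (8.64 against 9.41) and Tnks (15.7 against 16.3) were lower. The GC trend was not subtracted from these sums and means.

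Some members share their place with another annotated gene, and the sources used here do not say whether counting used the strand. Among those that passed, Psma2 and Psmg3 overlap a gene on the same strand (AW209491 and Gm26938). Psmd1 overlaps Gm21972, Psmd14 overlaps Gm25966 and Psmb7 overlaps Gm27634, also on the same strand. Psma4, Psmb7, Psmd3, Psmd9 and Psme4 overlap genes on the opposite strand (AY074887, Nek6, Gm12356, Hpd and Gm12103, among others). Part of the values of all these members may thus belong to the genes they overlap.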

How the data were processed

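The authors deposited 2 transcript tables, sleep with enforced wake and enforced wake with and without Fxr1, holding FPKM per transcript and library, per the file headers. Each also holds the authors' fold (sleep over enforced wake, and Fxr1 over control, as compared with the FPKM), p-value and q-value; the sources used here do not name the tool behind these. Per the submitters' processing notes, HISAT2 2.1.0, SAMtools 1.9, StringTie 1.3.4d and GRCm38 were named. The 3 enforced wake columns were identical in both tables (largest difference 0), so the 9 libraries were set side by side. FPKM are relative to each library's total and keep no read counts; depth is an estimate from the spacing of low values.

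FPKM were summed by gene symbol over 115220 transcripts and log2(FPKM + 1) was fitted in limma 3.58.1 (R 4.3.3; eBayes with trend; 2-sided). Benjamini-Hochberg adjustment ran over all genes of mean FPKM of at least 0.5, and the threshold was 0.05. This scale understates changes of low genes. The comparisons of enforced wake with sleep and of Fxr1 with control used their own 6 libraries, and Fxr1 against sleep all 9. With 3 against 3, an exact permutation test of 1 gene cannot go below p = 0.1, so limma's values rest on its model over all genes. GC content and loci came from the longest transcripts of GENCODE on GRCm38, which held 99.1% of transcripts; the trend was fitted in each library with splines (5 degrees of freedom) over genes of mean FPKM of at least 1. Members and gene lists were chosen with earlier results of these data known. Values in every library are given for Psmf1, for members that passed in any comparison with groups apart, and for the highest and lowest of each class by level in sleep, with the lowest tested gene of the alpha ring beside Psma8; a few others were chosen after their values were seen. Named transcripts are those of Psmf1 with a mean of at least 0.5 FPKM and those that passed, and named pathway genes are those that passed with Nfe2l1, Pomp, Adrm1 and Ubb; 1 further listed gene is not reported here. Alternatives were another pseudocount and filters, median-ratio scaling, the GC trend, a replicate block, no intensity trend, 1 fit over 9 libraries and leaving out each library. The procedure was also run on simulated data with independent noise in each gene. These data held no GC trend and no shift shared by the genes of a library, so they cannot speak to either.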

Additional observations from a re-analysis of the deposited data

How the results depend on the processing

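In enforced wake against sleep, where 13 members passed, 6 passed with no filter on low values or with the GC and length trend removed, 3 with the replicate block and that trend removed, 2 in 1 fit over all 9 libraries, and 3 to 12 with 1 library left out. Over all genes, 2298 passed as higher and 1858 as lower of 14673 in the main fit. With no filter these were 1513 and 1340 of 27915, and with the trend removed 1511 and 1908 of 14644. With the block and the trend removed they were 1013 and 1217, and over 9 libraries 669 and 729. With 1 library left out, 1057 to 2103 genes passed as higher and 742 to 1528 as lower. In Fxr1 against control, where 1 passed, 0 did with a pseudocount of 0.1, with no filter, with a mean of at least 5 FPKM, with the replicate block or with the block and the trend removed, 10 did in the fit over all 9 libraries, and 0 to 11 with 1 library left out. Over all genes, 12 passed as higher and 48 as lower of 14563 in the main fit, and 981 and 2385 of 14617 over 9 libraries. With a pseudocount of 0.1 these were 11 and 18, with no filter 1 and 3, and with a mean of at least 5 FPKM 11 and 16. With the block they were 0 and 1, and with the block and the trend removed 1 and 0. With 1 library left out, 1 to 828 genes passed as higher and 1 to 2488 as lower. In Fxr1 against sleep 1 passed under every alternative. Of member transcripts, where 1 passed in each comparison, in enforced wake against sleep 0 passed with no filter, the block, no intensity trend or 9 libraries, 7 with a mean of at least 5 FPKM and 0 to 2 with 1 library left out; in Fxr1 against control 0 passed with no filter, the stricter filter, the trend removed or the block, and 0 to 7 with 1 library left out. Over all transcripts in enforced wake against sleep, 596 passed as higher and 459 as lower in the main fit. With the stricter filter these were 796 and 820, with no filter 227 and 119, and with the block 6 and 5. With no intensity trend they were 405 and 213, and over 9 libraries 255 and 185. In Fxr1 against control they were 82 and 176 in the main fit and 0 and 0 with the block. The cause of these shifts was not tested. For the 15 values of members that passed, 135 alternatives kept the call, 92 kept the direction but not the call, and 0 turned the direction.

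Replicate numbers are shared by the groups, but same-numbered libraries correlated in their deviations between -0.25 and 0.17, so the numbers were not taken to pair them. With the replicate block 10 members passed in enforced wake against sleep and 0 in Fxr1 against control, where the adjusted p of Psmf1 was 0.0931; with the block and the trend removed it was 0.17. Over all genes, 1780 passed as higher and 1336 as lower with the block in enforced wake against sleep, and 0 and 1 in Fxr1 against control. Precision is limited by 3 libraries a group and, below about 1 FPKM, by the added constant.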
